A study of Homo sapiens with 10 samples.

Results

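To describe how extended pluripotency differed from primed pluripotency before any crotonate was added, untreated hEPS cells were compared with untreated primed hESCs of the same reporter line. Both groups derived from H9, an established hESC line, carrying a GFP transgene driven by LTR7, a HERVH retroviral promoter active in pluripotent cells, and both were wild type and received no crotonate according to their labels. The hEPS cells had been passaged with trypsin as single cells on mitomycin C-inactivated mouse embryonic fibroblast (MEF) feeders in LCDM medium, which holds LIF, the GSK3 inhibitor CHIR99021, (S)-(+)-dimethindene maleate and minocycline, with the tankyrase inhibitor IWR-endo-1, the ROCK inhibitor Y-27632 and serum replacement, and were separated from the feeders by adherence before collection. The primed hESCs were kept in mTeSR on Matrigel without feeders. The labels, which give the mTeSR culture for every sample, list 2 samples in each group, 4 of 10 in the series, and the deposited data hold 1 column of FPKM (fragments scaled by gene length and library size) in each group, 2 of 5 columns. The RNA-seq analysis of the study set each cell state against its own crotonate-treated cells.

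Primed hESCs correspond to the epiblast after implantation. They depend on FGF and Activin/Nodal signalling and express POU5F1, NANOG and SOX2 together with ZIC2, OTX2 and SFRP2. Naive hESCs correspond to the epiblast before implantation and add factors such as KLF17, DPPA3, DPPA5, DNMT3L and TFCP2L1. EPS cells are cultured in a mixture of LIF and small molecules and were described as able to enter embryonic and extraembryonic lineages.

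The comparison covered the 18437 genes present under the same symbol in both tables, of 27492 in either table. The hEPS table held 26731 genes and the primed one 19198. Over the shared genes the FPKM summed to 524176 in hEPS cells and 362825 in primed hESCs, so each column was rescaled to a sum of 1000000 and the difference of log2(rescaled FPKM + 1), hEPS minus primed, was taken. At an equal share of the 2 columns a gene had 1.44 times as many FPKM in hEPS cells as in primed hESCs, and this difference understates the change of genes near 0. Values in the text are FPKM as deposited, and differences are on the rescaled log2 scale. With at least 1 FPKM in either column, 12714 genes were measured, 12135 of them in hEPS cells and 11917 in primed hESCs. A measured gene was called higher or lower when the columns were at least 4-fold apart. A gene that reached 1 FPKM in 1 column only could be called only as higher in that column. Since each group has 1 column, no SD or test could be given, and cell state, medium, feeders, passaging and the table itself cannot be told apart.

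Of the measured genes, 407 (3.2%) were called higher and 400 (3.15%) lower in hEPS cells. These 2 shares are the background for the counts of all gene lists below. At 16-fold or more, 78 (0.613%) were higher and 35 (0.275%) lower. After quantile normalization of the 2 columns the calls were 455 higher (3.58%) and 342 lower (2.69%). The median difference was -0.09, and 90% of the measured genes lay between -1.71 and 1.61. Across the 18437 genes, which are not independent replicates, the 2 columns had a Pearson r of 0.937 on the log2 scale. FOS, EGR1, APOA1, SP5, FST and OLIG3 were among the 15 highest differences, and MIF and CDH1 among the 15 lowest. Of the genes called, 64 that were higher in hEPS cells were listed at 0 in primed hESCs, and 25 that were lower were listed at 0 in hEPS cells.

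**Figure D1:**
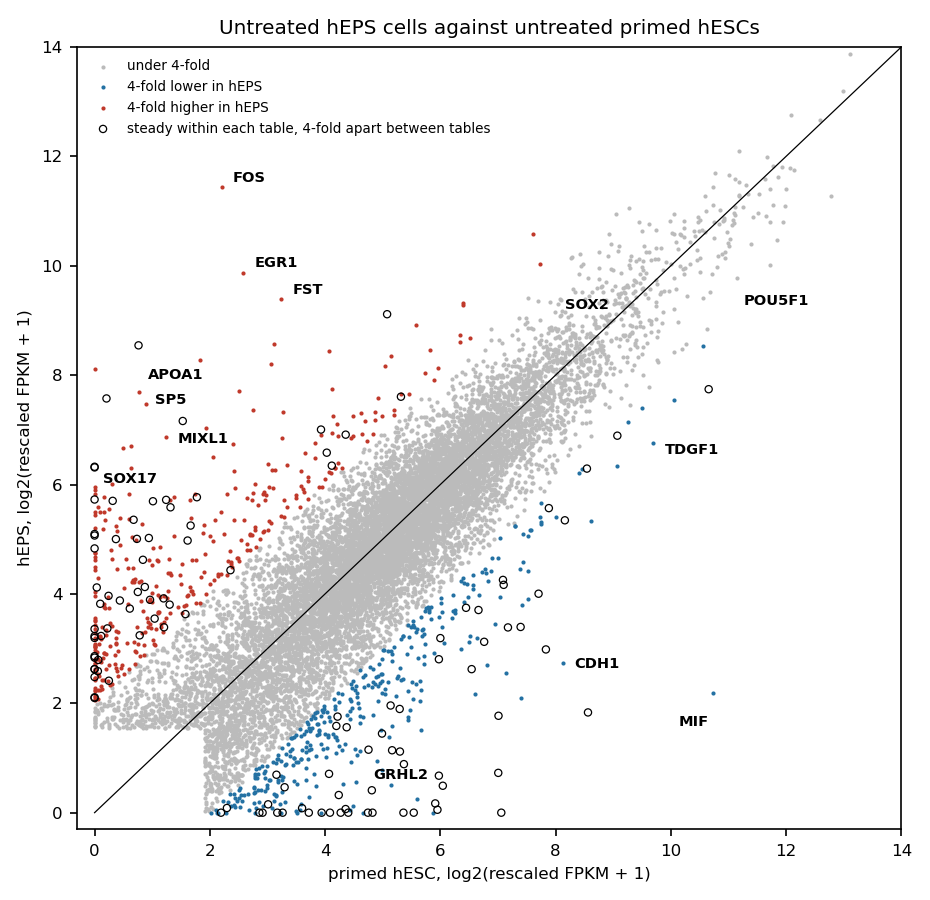
Each point is a measured gene, with log2(rescaled FPKM + 1) of hEPS cells on the vertical axis and of primed hESCs on the horizontal axis. Red points with the open circles above the line are the 407 genes called higher in hEPS cells, blue points with the circles below it are the 400 called lower, the circles being the genes that kept to their table in all 5 columns (57 higher and 58 lower), and the line marks equal values. FOS, EGR1 and FST stand far above the line and MIF and CDH1 far below it, while POU5F1 and SOX2 lie close to it.

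Because the columns come from separate tables, each call was also read against the other 3 columns, which hold crotonate-treated hEPS cells (10 mM for 12 days, in the hEPS table), crotonate-treated primed hESCs and endodermal cells. The 2 columns of the hEPS table formed 1 group and the 3 other columns another. A gene was said to keep to its table when 2 conditions held. Its FPKM + 1 lay within 2-fold inside each group. Both columns of the hEPS table were also at least 4-fold beyond all 3 others. Because 1 was added, values near 0 met the 2-fold limit almost whatever their ratio. CSNK1E, FOSB and WNT8A kept to their table although their FPKM in the 3 other columns were more than 2-fold apart. The rule held for 57 of the 407 genes called higher and 58 of the 400 called lower. Exons of 50.9% of these 57 and 65.5% of these 58 overlapped another gene on the same strand in GENCODE 44, against 17.7% of all measured genes, 10.0% of the other genes called higher and 18.2% of the other genes called lower. HNRNPH2, listed at 41.5 FPKM in hEPS cells and 0 in primed hESCs, and KRTCAP2, listed at 0 in hEPS cells and 48.0 in primed hESCs, were of this kind, and both overlap a neighbour. The steps that single reads make in the FPKM were also compared. For genes under 0.2 FPKM, the ratio of 2 columns was divided by 1 common factor, chosen for each pair of columns to fit the most genes. Between the 2 hEPS columns, 88.0% of 1031 ratios then fitted small whole numbers of reads within 0.05%. Between the 2 primed columns 81.4% of 839 did so, but only 10.3% of 944 did so between hEPS cells and primed hESCs. With the factor shifted, these 3 shares were 0.323%, 0.159% and 1.87%. Genes that kept to their table are named as such below.

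The pluripotency network was expressed in both states. All 9 hPSC markers were at 1 FPKM or more in hEPS cells and in primed hESCs, with a sum of 1562 FPKM in hEPS cells and 2411 in primed hESCs. POU5F1, which encodes OCT4, had 461 FPKM in hEPS cells and 827 in primed hESCs, a difference of -1.37 that was not called (reads from its pseudogenes may have been shared). NANOG had 15.3 FPKM in hEPS cells and 41.0 in primed hESCs, with a difference of -1.92. SOX2 had 234 FPKM in hEPS cells and 128 in primed hESCs. The RNA-binding protein gene LIN28A had 311 FPKM in hEPS cells and 387 in primed hESCs, and the zinc finger gene SALL4 had 68.9 in hEPS cells and 57.5 in primed hESCs. Thus the 3 core factors kept within 4-fold, with SOX2 on the other side of 0 from POU5F1 and NANOG.

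Of 20 measured genes of core pluripotency, 1 was called higher and 4 lower in hEPS cells, and their median difference was -1.02 against -0.09 over all measured genes. TDGF1, the Nodal co-receptor CRIPTO, had 56.5 FPKM in hEPS cells and 299 in primed hESCs (-2.92). The forkhead repressor gene FOXD3 had 0.897 FPKM in hEPS cells and 5.05 in primed hESCs. DPPA2 had 0.0413 FPKM in hEPS cells and 1.6 in primed hESCs, and the telomere-binding protein gene TERF1 had 87.5 in hEPS cells and 262 in primed hESCs. FOXD3, DPPA2 and TERF1 fell below 4-fold when the FPKM were compared as deposited. GDF3, a TGF-beta family ligand, was the member called higher, with 18.2 FPKM in hEPS cells and 2.15 in primed hESCs. L1TD1, an RNA-binding protein of hESCs, had 114 FPKM in hEPS cells and 286 in primed hESCs, and the de novo methyltransferase DNMT3B had 159 in hEPS cells and 319 in primed hESCs, both short of the threshold.

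Defining naive markers were near 0 in both groups. KLF17 and KHDC1L were listed at 0 in both columns. DPPA3 had 0.106 FPKM in hEPS cells and 0 in primed hESCs, DPPA5 had 0.420 in hEPS cells and 0.0920 in primed hESCs, and DNMT3L had 0.159 in hEPS cells and 0.392 in primed hESCs. Of 8 naive markers, 1 reached 1 FPKM in hEPS cells (SUSD2, 2.94 FPKM, against 4.44 in primed hESCs) and 2 did so in primed hESCs (SUSD2 and TFCP2L1). TFCP2L1, a LIF target in mouse ES cells, had 0.151 FPKM in hEPS cells and 1.26 in primed hESCs. By these markers the hEPS column carried few naive transcripts, and no marker list of the EPS state itself was used.

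Of the 12 measured genes of the wider naive and preimplantation list, 5 were nevertheless called higher and 0 lower in hEPS cells. They were transcription factors and a growth factor that lineages after implantation also use. KLF4, a Kruppel-like factor downstream of LIF in mouse ES cells, had 29.2 FPKM in hEPS cells and 2.38 in primed hESCs (2.91). KLF2 had 6.61 FPKM in hEPS cells and 0.0434 in primed hESCs (3.60). TFAP2C, an AP-2 factor of naive cells, trophoblast and germ cells, had 16.2 FPKM in hEPS cells and 2.29 in primed hESCs. The T-box gene TBX3 had 2.45 FPKM in hEPS cells and 0.0192 in primed hESCs, and the growth factor gene FGF4 had 3.56 in hEPS cells and 0.224 in primed hESCs, both under 4-fold as deposited. KLF5 was at 2.12 FPKM in hEPS cells and 0.708 in primed hESCs, and NR5A2 at 2.59 in hEPS cells and 1.13 in primed hESCs, so neither was called. Of the eight-cell stage list, only 1 of the 19 genes in both tables was measured, and it was not called.

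Markers of the primed state were expressed in both groups. Of 7 primed markers in both tables, 6 were at 1 FPKM or more in hEPS cells and 6 in primed hESCs, with a sum of 396 FPKM in hEPS cells and 661 in primed hESCs, and 1, THY1, was called lower. ZIC2, a zinc finger factor of the primed epiblast, had 93.3 FPKM in hEPS cells and 84.0 in primed hESCs. OTX2, a homeobox factor of the postimplantation epiblast, had 76.8 FPKM in hEPS cells and 20.1 in primed hESCs. SFRP2, a secreted WNT inhibitor, had 133 FPKM in hEPS cells and 267 in primed hESCs. Neither ZIC2, OTX2 nor SFRP2 was called, and neither were DUSP6 (-1.44) and FAT3, with 1.96 FPKM in hEPS cells and 5.95 in primed hESCs (-1.88).

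Of 24 measured genes of the primed list, 3 were called higher and 3 lower in hEPS cells, with a median of -0.37 that became 0.16 on FPKM as deposited. FST, the Activin antagonist follistatin, had 351 FPKM in hEPS cells and 3.06 in primed hESCs (6.15). CDH2, which encodes N-cadherin, had 204 FPKM in hEPS cells and 29.0 in primed hESCs (2.27). CRABP2, which binds retinoic acid, had 550 FPKM in hEPS cells and 77.0 in primed hESCs (2.30). The surface glycoprotein gene THY1 was lower, with 42.0 FPKM in hEPS cells and 193 in primed hESCs (-2.72). PTPRZ1 had 38.1 FPKM in hEPS cells and 122 in primed hESCs, and POU3F1 had 6.48 in hEPS cells and 19.2 in primed hESCs. PTPRZ1 and POU3F1 fell below 4-fold as deposited, and POU3F1 also did so after quantile normalization.

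Endoderm genes were higher in hEPS cells. Of 21 measured genes of endoderm and primitive endoderm, 14 were called higher and 0 lower, with a median difference of 2.57. All 21 were at 1 FPKM or more in hEPS cells and 7 in primed hESCs, and 1 of the 14 called was so in both. None of the 14 kept to its table, but genes that crotonate moved could not meet that rule (SOX17 was at 191 FPKM in crotonate-treated hEPS cells). For 5 of the 14, both columns of the hEPS table were at least 4-fold beyond all 3 others. The 4 endoderm markers summed to 78.5 FPKM in hEPS cells and 0.0643 in primed hESCs. SOX17, a transcription factor of definitive and primitive endoderm, had 29.2 FPKM in hEPS cells and was listed at 0 in primed hESCs. FOXA2, a pioneer factor of endoderm, had 18.7 FPKM in hEPS cells and was listed at 0 in primed hESCs. These levels were a small part of those of POU5F1 in the same column.

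The zinc finger factors GATA4 and GATA6 act early in primitive endoderm. GATA4 had 20.9 FPKM in hEPS cells and 0.0482 in primed hESCs (5.17), and GATA6 had 9.72 in hEPS cells and 0.0161 in primed hESCs (4.23). CER1, a secreted Nodal and BMP antagonist of anterior endoderm, had 39.0 FPKM in hEPS cells and 1.59 in primed hESCs (3.81). HNF4A, a nuclear receptor of liver and gut, had 7.57 FPKM in hEPS cells and 0.0647 in primed hESCs (3.71). Apolipoprotein genes, which yolk sac endoderm and liver express, were among the highest, with APOA1 at 107 FPKM in hEPS cells and 0.255 in primed hESCs (6.92) and APOA2 at 30.6 in hEPS cells and listed at 0 in primed hESCs. The basement membrane genes LAMA1, COL4A1 and COL4A2 were not called, and neither were HHEX, SOX7 and AFP. In bulk RNA a few cells with a high level and many cells with a low level give the same value and cannot be told apart.

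Genes of the primitive streak, the site where epiblast cells become mesoderm and endoderm, were also higher. Of 18 measured members, 13 were called higher and 0 lower, with a median of 3.14. All 18 reached 1 FPKM in hEPS cells and 4 did in primed hESCs, and 0 of the 13 did in both. The 13 were thus measured through the hEPS column alone, which allows only a higher call. Of these 13, T, WNT8A and CDX1 kept to their table. MIXL1, a homeobox factor of mesendoderm, had 60.6 FPKM in hEPS cells and 0.496 in primed hESCs (5.62). EOMES, the T-box factor that specifies definitive endoderm, had 28.2 FPKM in hEPS cells and 0.0460 in primed hESCs (5.60). The ligand gene WNT3A had 18.1 FPKM in hEPS cells and 0.112 in primed hESCs (4.76). GSC, a homeobox factor of the anterior streak, had 8.57 FPKM in hEPS cells and 0.153 in primed hESCs (3.61). FGF8, a growth factor of the streak, had 12.2 FPKM in hEPS cells and 0.414 in primed hESCs (3.50), and T, which encodes Brachyury, had 7.19 in hEPS cells and 0.129 in primed hESCs (3.44). NODAL, the ligand that induces the streak, had 16.8 FPKM in hEPS cells and 3.57 in primed hESCs and was not called. MESP1 and MESP2, which mark mesoderm leaving the streak, and LHX1, an endoderm marker of the study, were at 0.748 to 1.38 FPKM in hEPS cells and 0.104 to 0.414 in primed hESCs.

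Neuroectoderm genes showed calls in both directions, mostly higher. Of 24 measured members, 10 were called higher and 2 lower, with a median of 1.45. Of the 10, 3 reached 1 FPKM in both columns. ZIC1, a zinc finger factor of dorsal neural tube, had 11.3 FPKM in hEPS cells and was listed at 0 in primed hESCs. PAX3, a factor of dorsal neural tube and neural crest, had 11.2 FPKM in hEPS cells and 0.212 in primed hESCs (3.82). PAX6, an early neural factor in humans, had 6.44 FPKM in hEPS cells and 0.191 in primed hESCs (3.12) and kept to its table. GBX2, a hindbrain factor, had 26.9 FPKM in hEPS cells and 2.45 in primed hESCs (2.75). SOX1 had 3.59 FPKM and LHX5 4.89 FPKM in hEPS cells, and both were listed at 0 in primed hESCs. SOX3, a close relative of SOX2, was lower with 4.38 FPKM in hEPS cells and 14.4 in primed hESCs (-2.12), and POU3F1 was the other gene called lower. Both were under 4-fold as deposited, and POU3F1 also after quantile normalization. SIX3, a forebrain factor, stayed low with 0.612 FPKM in hEPS cells and 0.0722 in primed hESCs.

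Of 39 HOX genes, which set position along the body axis, 6 were measured and 4 called higher, all from the 2 anterior-most paralog groups, which are used in the hindbrain. Among them, HOXB1 had 13.6 FPKM, HOXB2 5.45 and HOXA2 2.35 in hEPS cells, and these 3 were listed at 0 in primed hESCs. HOXA2 fell below 4-fold as deposited. Of the 6 measured HOX genes, 0 reached 1 FPKM in primed hESCs, which allows only higher calls. Over all 39 the median difference was 0.22, against 2.82 for the 6. Among mesoderm genes, 4 of 10 measured were called higher and 1 lower. The 4 reached 1 FPKM in hEPS cells only. The homeobox gene PITX1 had 8.12 FPKM in hEPS cells and was listed at 0 in primed hESCs. KDR, a VEGF receptor, was lower with 6.15 FPKM in hEPS cells and 23.3 in primed hESCs (-2.36), and under 4-fold as deposited. HAND1, a factor of extraembryonic and lateral mesoderm, was at 1.64 FPKM in hEPS cells and 0.0698 in primed hESCs and was not called.

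Trophoblast genes gave no common direction. Of 10 measured members, 2 were called higher and 3 lower, against 3.2% higher and 3.15% lower over all measured genes. TFAP2A had 2.67 FPKM in hEPS cells and was listed at 0 in primed hESCs, and GATA3, a trophoblast regulator, had 2.08 in hEPS cells and 0.0297 in primed hESCs. GABRP, HLA-G and SLC7A2 were the 3 called lower. As deposited, TFAP2A, GATA3, GABRP, HLA-G and SLC7A2 were all under 4-fold. ELF5, CGA and KRT23 were listed at 0 in both columns, TP63 had 0.0117 FPKM in hEPS cells and 0 in primed hESCs, and GCM1 had 0 in hEPS cells and 0.0219 in primed hESCs.

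**Figure D2:**
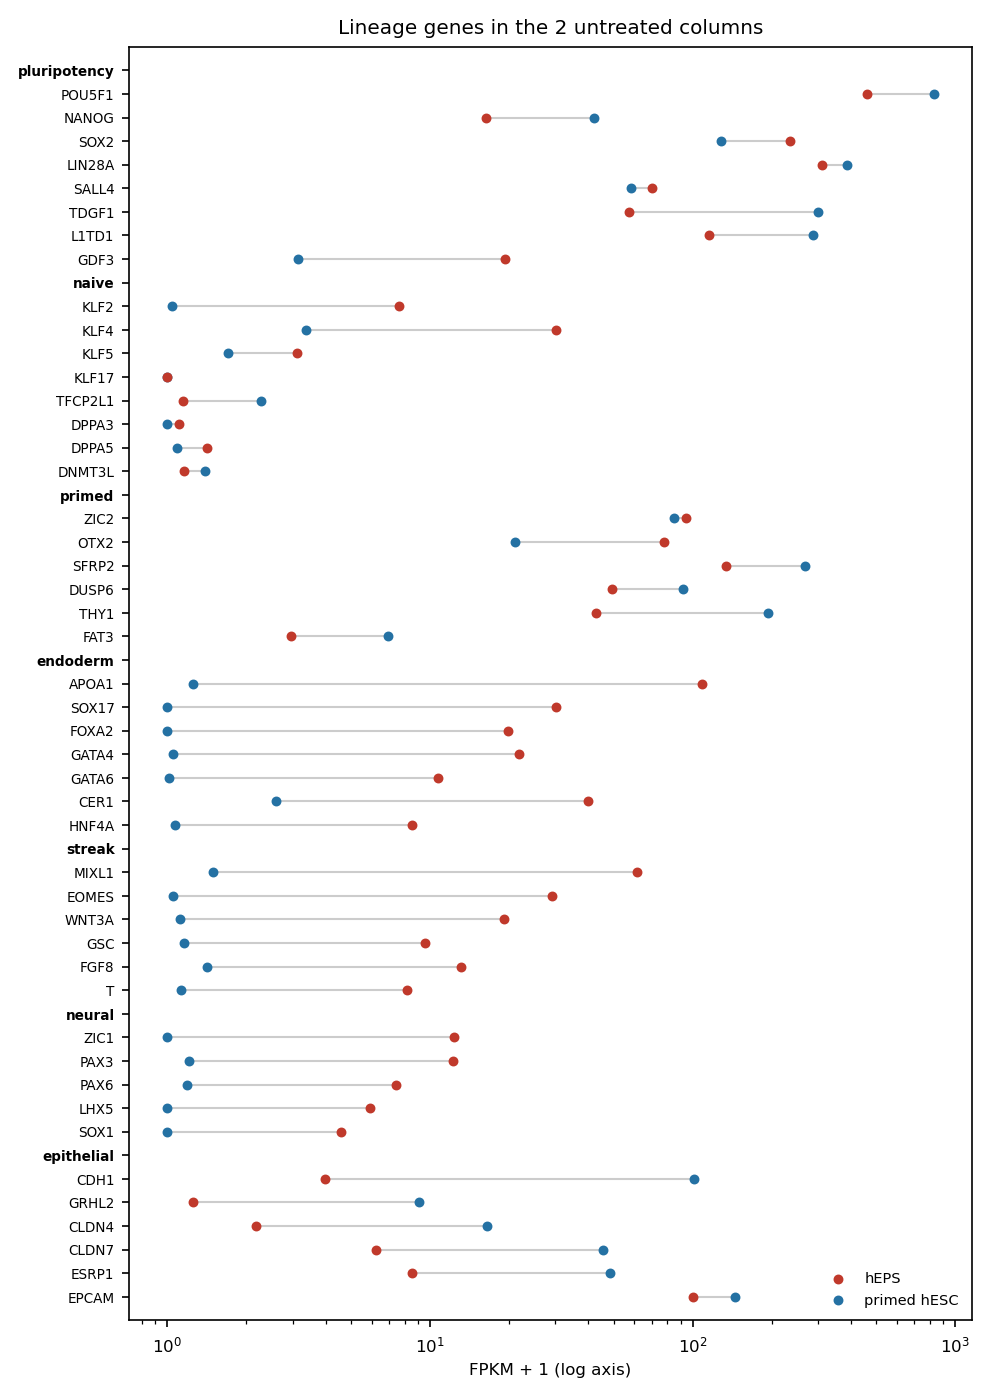
FPKM + 1 on a log axis of 46 lineage genes in untreated hEPS cells (red) and untreated primed hESCs (blue), with a grey line joining the 2 values of a gene. Of the pluripotency and primed genes plotted, TDGF1, GDF3 and THY1 were past 4-fold. The naive genes KLF17, DPPA3, DPPA5 and DNMT3L stayed under 1 FPKM in both, while KLF2 and KLF4 were called higher in hEPS cells. KLF5 reached 1 FPKM in hEPS cells only, and TFCP2L1 did in primed hESCs only. Endoderm, streak and neural genes were higher in hEPS cells (SOX17 29.2 FPKM, listed at 0 in primed hESCs), and epithelial genes such as CDH1 (2.98 FPKM in hEPS cells, 101 in primed hESCs) were lower.

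WNT ligands stabilize beta-catenin, which joins TCF/LEF factors on target genes, and many of these targets encode inhibitors that feed back on the pathway. Of 21 measured genes of WNT targets and feedback, 10 were called higher and 0 lower in hEPS cells, with a median of 1.85. Of the 10, 3 reached 1 FPKM in both columns. The promoters of SP5, MIXL1 and DKK1 are shown because they hold TCF/LEF letters in the 250 bases before the start, and that of EGR1 because it holds CArG boxes, the binding motif of serum response factor. The TCF/LEF motif was CTTTGAT or CTTTGAA on either strand, in capitals below (TTCAAAG is CTTTGAA on the other strand). It occurred in 2086 of 35116 RefSeq promoters (5.94%). Among called genes with a promoter in that set, it occurred in 2 of 5 WNT genes (SP5 and DKK1) and in 4 of 9 streak genes (SP5, DKK1, MIXL1 and T). SP5 and DKK1 are in both lists. CArG boxes occurred in 407 promoters (1.16%) and in 2 of the 13 called immediate early genes with a promoter in the set (EGR1 and EGR2). Both motifs were chosen after the values were seen, and a match is a description of letters. The sequences are from RefSeq on GRCh38.p14, all on the plus strand, at chr2:170715087-170715336 for SP5, chr1:226223414-226223663 for MIXL1, chr10:52314031-52314280 for DKK1 and chr5:138465229-138465478 for EGR1.
SP5: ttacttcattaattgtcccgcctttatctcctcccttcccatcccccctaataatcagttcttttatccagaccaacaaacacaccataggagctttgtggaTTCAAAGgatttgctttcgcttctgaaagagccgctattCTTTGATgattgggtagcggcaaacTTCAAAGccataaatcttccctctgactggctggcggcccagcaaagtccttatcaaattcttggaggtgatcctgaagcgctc
MIXL1: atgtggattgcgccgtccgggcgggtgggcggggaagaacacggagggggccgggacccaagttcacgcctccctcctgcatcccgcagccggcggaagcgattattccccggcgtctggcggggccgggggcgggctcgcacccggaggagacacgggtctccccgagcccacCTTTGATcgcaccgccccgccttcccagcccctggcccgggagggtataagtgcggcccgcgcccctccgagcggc
DKK1: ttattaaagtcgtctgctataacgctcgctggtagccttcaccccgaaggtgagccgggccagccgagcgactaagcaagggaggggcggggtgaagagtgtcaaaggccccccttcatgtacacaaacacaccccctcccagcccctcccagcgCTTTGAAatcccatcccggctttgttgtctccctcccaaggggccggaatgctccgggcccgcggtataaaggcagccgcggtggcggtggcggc
EGR1: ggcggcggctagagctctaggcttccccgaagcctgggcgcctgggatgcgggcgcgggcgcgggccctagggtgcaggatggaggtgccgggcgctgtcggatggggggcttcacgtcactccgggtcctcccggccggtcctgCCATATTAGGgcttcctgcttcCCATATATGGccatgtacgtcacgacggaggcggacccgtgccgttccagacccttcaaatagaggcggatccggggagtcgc

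SP5, a zinc finger repressor that is a direct WNT target, had 92.3 FPKM in hEPS cells and 0.312 in primed hESCs (6.57), and its 3 TCF/LEF matches began 148, 109 and 84 bases before the start. DKK1, a secreted inhibitor of WNT receptors, had 24.1 FPKM in hEPS cells and 0.0672 in primed hESCs (5.31), with 1 match 95 bases before the start. The match of MIXL1 lay 76 bases before its start. AXIN2, the negative regulator most used as a readout of the pathway, had 64.3 FPKM in hEPS cells and 5.93 in primed hESCs (2.83). The transcription factor gene LEF1 had 21.1 FPKM in hEPS cells and 0.183 in primed hESCs (4.78). TNFRSF19, a target that encodes a receptor, had 16.8 FPKM in hEPS cells and 0.208 in primed hESCs (4.39), and LGR5, an R-spondin receptor, had 3.92 in hEPS cells and 0.0202 in primed hESCs (3.01). The inhibitor genes APCDD1 and NKD1 were also called, with APCDD1 at 31.1 FPKM in hEPS cells and 4.06 in primed hESCs and NKD1 at 12.0 in hEPS cells and 1.5 in primed hESCs. CDX1 was called and kept to its table. Growth genes that WNT can drive were not called, with CCND1 at 131 FPKM in hEPS cells and 42.8 in primed hESCs and MYC at 18.4 in hEPS cells and 37.4 in primed hESCs. RSPO3 and WNT1, ligands outside the list and chosen after their values were seen, had 24.7 and 22.2 FPKM in hEPS cells and 0.0132 and 0 in primed hESCs. WLS, which carries WNT ligands to the cell surface, had 161 FPKM in hEPS cells and 0.933 in primed hESCs (6.43).

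BMP ligands act through SMAD1 and SMAD5 on the ID and MSX genes. Of 15 measured genes of the BMP response, 9 were called higher and 0 lower, with a median of 2.20, and none kept to its table. Of the 9, 3 reached 1 FPKM in both columns. ID1, an inhibitor of bHLH factors, had 802 FPKM in hEPS cells and 70.2 in primed hESCs (2.98). ID2 had 146 FPKM in hEPS cells and 22.3 in primed hESCs (2.16), and ID4 had 29.1 in hEPS cells and 1.42 in primed hESCs (3.52). ID3 differed in the same direction, with 340 FPKM in hEPS cells and 86.5 in primed hESCs, but was short of 4-fold. The homeobox genes MSX1 and MSX2 were at 16 and 9.24 FPKM in hEPS cells and 0.235 and 0.206 in primed hESCs. Among ligands, BMP2 was called, with 26.9 FPKM in hEPS cells and 0.776 in primed hESCs (4.06), whereas BMP4 was not, with 14.3 in hEPS cells and 3.55 in primed hESCs. The secreted antagonists NOG, GREM1 and CHRD were each called higher, at 3.84 to 5.67 FPKM in hEPS cells and 0.0754 to 0.321 in primed hESCs.

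In 4 other pathways of pluripotent cells the calls were read against the 3.2% called higher and 3.15% called lower over all measured genes. For LIF and STAT3, 2 of 18 measured genes were called higher (KLF4 and JUNB) and 0 lower. SOCS3, the feedback inhibitor most directly induced by STAT3, had 61.9 FPKM in hEPS cells and 13.5 in primed hESCs (1.64), and the receptor gene LIFR had 11.2 in hEPS cells and 3.41 in primed hESCs, so neither was called. For FGF and ERK feedback, 5 of 28 were higher and 1 lower. The lower gene was PHLDA1, at 3.76 FPKM in hEPS cells and 15.9 in primed hESCs, under 4-fold as deposited. The ERK phosphatase gene DUSP6 had 48.2 FPKM in hEPS cells and 91.0 in primed hESCs, and the inhibitor gene SPRY4 had 23.9 in hEPS cells and 45.2 in primed hESCs, both uncalled, while FGF17 had 23.1 in hEPS cells and 0.0443 in primed hESCs (5.33). For Nodal and TGF-beta, 3 of 21 were higher (FST, CER1 and GDF3) and 1 lower (TDGF1). The targets LEFTY1 and LEFTY2 were not called. For Notch, 3 of 16 were higher and 1 lower. HES1, a Notch target, had 151 FPKM in hEPS cells and 11.5 in primed hESCs.

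FOS had the largest difference of the comparison. This AP-1 subunit gene (GENCODE 44, hg38, chr14:75278826-75282230, plus strand) had 1451 FPKM in hEPS cells and 1.31 in primed hESCs (9.23). FOS belongs to the immediate early genes, which are switched on within minutes of a stimulus without new protein. A list of 26 such genes was drawn up after FOS and EGR1 had been seen, and 14 of them were called higher and 0 lower, with a median of 2.34. EGR1, whose 2 CArG boxes began 105 and 83 bases before the start in the sequence shown, had 491 FPKM in hEPS cells and 1.79 in primed hESCs (7.31). FOSB had 195 FPKM in hEPS cells and 0.253 in primed hESCs (7.78), and it and NR4A1 kept to their table. JUN had 181 FPKM in hEPS cells and 5.75 in primed hESCs (4.36), and the AP-1 subunit gene JUNB had 83.3 in hEPS cells and 3.12 in primed hESCs (4.06). ATF3, a stress-induced repressor, had 112 FPKM in hEPS cells and 5.97 in primed hESCs (3.62), and the phosphatase gene DUSP1 had 85.3 in hEPS cells and 2.08 in primed hESCs (4.60). Not all members were higher. IER2 had 41.7 FPKM in hEPS cells and 78.2 in primed hESCs, FOSL1 had 4.16 in hEPS cells and 9.64 in primed hESCs, and the serum response factor targets CYR61 and CTGF were not called.

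In the other column of the hEPS table, crotonate-treated hEPS cells, FOS was at 1045 FPKM and EGR1 at 358 FPKM. EGR2, EGR3 and EGR4, close relatives of EGR1, were lower there, at 2.04, 14.9 and 1.94 FPKM in crotonate-treated hEPS cells, against 14.4, 52.8 and 23.3 FPKM in untreated hEPS cells. In the primed table FOS was at 2.29 FPKM in crotonate-treated primed hESCs, and it was at 19.8 FPKM in endodermal cells. Of the 14 immediate early genes called, 8 had both columns of the hEPS table at least 4-fold beyond all 3 others, as did 11 of the 13 called streak genes and 5 of the 14 called endoderm genes. This was so for 3 of the 10 called WNT genes, SP5 among them (92.3 and 129 FPKM in untreated and crotonate-treated hEPS cells, at most 2.77 in the other 3 columns), and for 0 of the 9 called BMP genes and 0 of the 7 called epithelial genes. LEF1 was at 62.3 FPKM in crotonate-treated primed hESCs and MSX1 at 118 FPKM, both above the 21.1 and 16 FPKM of hEPS cells, so untreated primed hESCs were the lowest of the 5 columns for both genes.

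**Figure D3:**
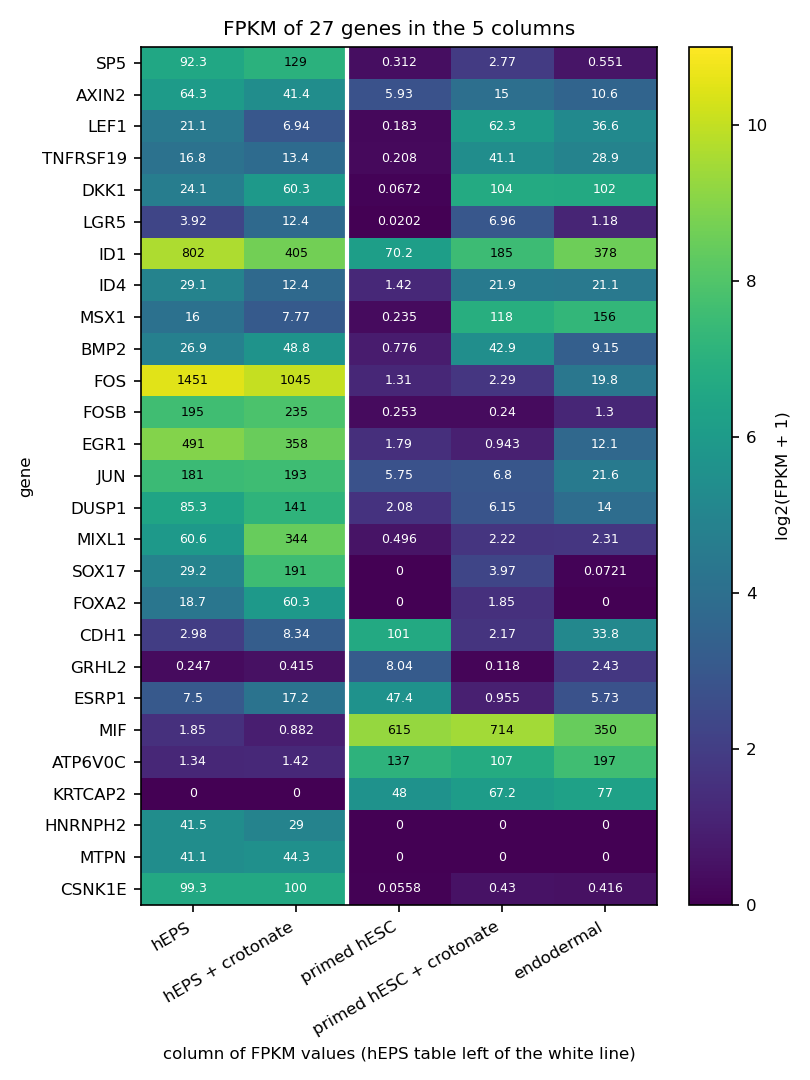
FPKM of 27 genes in the 5 columns, with the number printed in each cell and colour giving log2(FPKM + 1). The hEPS table is left of the white line. FOS, FOSB and EGR1 were high in both hEPS columns (FOS 1451 and 1045 FPKM) and at most 19.8 FPKM in the other 3, LEF1 and MSX1 were lowest in untreated primed hESCs, CDH1 and GRHL2 were highest there, and the lowest 5 rows (ATP6V0C to CSNK1E) kept to their table.

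Epithelial genes were lower in hEPS cells. Of 21 measured genes of epithelial adhesion and keratins, 7 were called lower and 0 higher, with a median of -1.39, and 19 of the 21 differences were below 0. CDH1 (GENCODE 44, hg38, chr16:68737292-68835537, plus strand), which encodes E-cadherin, had 2.98 FPKM in hEPS cells and 101 in primed hESCs (-5.38). GRHL2, a transcription factor that maintains epithelia, had 0.247 FPKM in hEPS cells and 8.04 in primed hESCs (-3.98). ESRP1, a splicing factor of epithelial cells, had 7.50 FPKM in hEPS cells and 47.4 in primed hESCs (-3.10), and the P-cadherin gene CDH3 had 10.7 in hEPS cells and 66.7 in primed hESCs (-3.11). The tight junction genes CLDN4 and CLDN7 had 1.17 and 5.20 FPKM in hEPS cells and 15.4 and 44.5 in primed hESCs. None of the 7 kept to its table.

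The other 14 measured epithelial genes were not called, and 12 of them were also below 0, though CLDN6 and OCLN were above 0 as deposited. EPCAM had 99.4 FPKM in hEPS cells and 144 in primed hESCs, CLDN6 had 400 in hEPS cells and 396 in primed hESCs, and KRT8 had 412 in hEPS cells and 214 in primed hESCs. The lower CDH1 stood beside the higher CDH2 in hEPS cells. ZEB1 and ZEB2, repressors of CDH1 that were chosen after their values were seen, had 10.5 and 33.3 FPKM in hEPS cells and 0.540 and 0.0824 in primed hESCs. Of the other factors of epithelial-mesenchymal transition, SNAI1 had 4.55 FPKM in hEPS cells and 5.06 in primed hESCs and SNAI2 had 1.92 in hEPS cells and 1.01 in primed hESCs. TWIST1 had 1.90 FPKM in hEPS cells and 0.0911 in primed hESCs, and the intermediate filament gene VIM had 245 in hEPS cells and 66.0 in primed hESCs. SNAI1, SNAI2, TWIST1 and VIM were not called.

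Because hEPS cells were taken from feeders, genes of fibroblasts were examined. Of 22 measured genes of feeder fibroblast and mesenchyme, 3 were called higher (FN1, PRRX1 and COL3A1) and 2 lower (THY1 and COL12A1), with a median of 0.22. Over all measured genes the shares were 3.2% higher and 3.15% lower. COL3A1 and COL12A1 were under 4-fold as deposited. The 9 feeder markers summed to 65.8 FPKM in hEPS cells and 44 in primed hESCs, and 2 of them were called higher. COL1A1 had 34.6 FPKM in hEPS cells and 20.6 in primed hESCs, and COL1A2 had 22.9 in hEPS cells and 22.4 in primed hESCs. Of the same 9, DCN (0.0248 FPKM), LUM (0.0854) and FAP (0) were near 0 in hEPS cells, and all 3 were listed at 0 in primed hESCs. PRRX1 had 3.44 FPKM in hEPS cells and 0.0451 in primed hESCs, and COL3A1 had 2.70 in hEPS cells and 0 in primed hESCs. TWIST1 had 1.90 FPKM in hEPS cells and 0.0911 in primed hESCs, and POSTN had 0.168 in hEPS cells and 0.889 in primed hESCs. How far mouse reads map to human genes was not tested.

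Interferon response genes were partly higher, with 7 of 26 called higher and 0 lower and a median of 1.09. Over all measured genes, 3.2% were called higher and 3.15% lower, which also holds beside the 2 other lists of this paragraph. IFI6 had 170 FPKM in hEPS cells and 12.5 in primed hESCs (3.20), and the antiviral gene MX1 had 28.7 in hEPS cells and 2.49 in primed hESCs (2.82). IFIT1, IFIT2, IFIT3 and DDX58, which encodes the RNA sensor RIG-I, were not called. Of 14 genes of MHC class I and antigen presentation, 0 were called higher and 2 lower. These were CD74, the invariant chain of MHC class II, with 4.37 FPKM in hEPS cells and 33.0 in primed hESCs, and HLA-F, which was under 4-fold as deposited. Metallothionein and zinc transport genes had 0 of 22 called higher and 4 lower, among them MT2A at 26.0 FPKM in hEPS cells and 77.3 in primed hESCs. All 4 calls (MT2A, MT1E, MT1M and SLC30A3) were lost as deposited.

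Metabolic genes, the subject of the study's later experiments, were counted by pathway. Of 26 glycolysis genes, 1 was called higher (ENO3, 32.2 FPKM in hEPS cells and 5.21 in primed hESCs) and 1 lower (ALDOC, 12.7 in hEPS cells and 43.1 in primed hESCs), and their median of -0.35 became 0.17 as deposited, where ALDOC was under 4-fold. GAPDH had 1302 FPKM in hEPS cells and 2547 in primed hESCs (-1.5) and was not called. Outside the list, the sperm isozyme gene GAPDHS was among the 15 lowest differences, listed at 0 in hEPS cells and with 20.8 FPKM in primed hESCs (-5.87), and the muscle isozyme gene PGAM2, chosen after its values were seen, was listed at 0 in hEPS cells and had 2.90 FPKM in primed hESCs (-3.17) and kept to its table. None of 24 cholesterol synthesis genes was called, and neither was any of 10 enzymes of DNA methylation. Of 73 nuclear genes of the respiratory chain, 2 were called higher and 5 lower, and 4 of these 7 kept to their table. Of 82 cytosolic ribosomal protein genes, 0 were higher and 3 lower. Over all measured genes, 3.2% were higher and 3.15% lower.

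Guidance and synaptic adhesion genes of neurons gave calls in both directions, with 9 of 66 measured higher and 4 lower. The ephrin receptor gene EPHA4 had 55.7 FPKM in hEPS cells and 1.56 in primed hESCs, whereas its relative EPHA1 had 11 in hEPS cells and 60.3 in primed hESCs. Of 20 imprinted genes, 2 were higher, the growth regulators DLK1 and PLAGL1. Of 45 histone genes, 5 were higher and 0 lower. Stress and growth pathways, against the same 3.2% and 3.15% over all measured genes, had 2 higher and 2 lower of 27 genes of the ATF4 response, 2 and 0 of 21 p53 targets, 0 and 1 of 17 hypoxia genes, 1 and 0 of 24 YAP and SRF targets and 1 and 0 of 16 genes of fatty acid synthesis. Among families, 5 of 428 ZNF genes were higher and 6 lower, 3 of 39 potassium channel genes were higher and 3 lower, and 0 of 74 mitochondrial ribosomal protein genes were higher and 2 lower. Of 21 laminin and integrin genes 1 was lower (ITGA1), as was 1 of 17 clustered protocadherins (PCDHB15), with 0 higher in both lists. Both were under 4-fold as deposited, and ITGA1 also after quantile normalization. The germline and cancer-testis lists had 2 measured genes each, of which MAGEB17 was called higher.

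**Figure D4:**
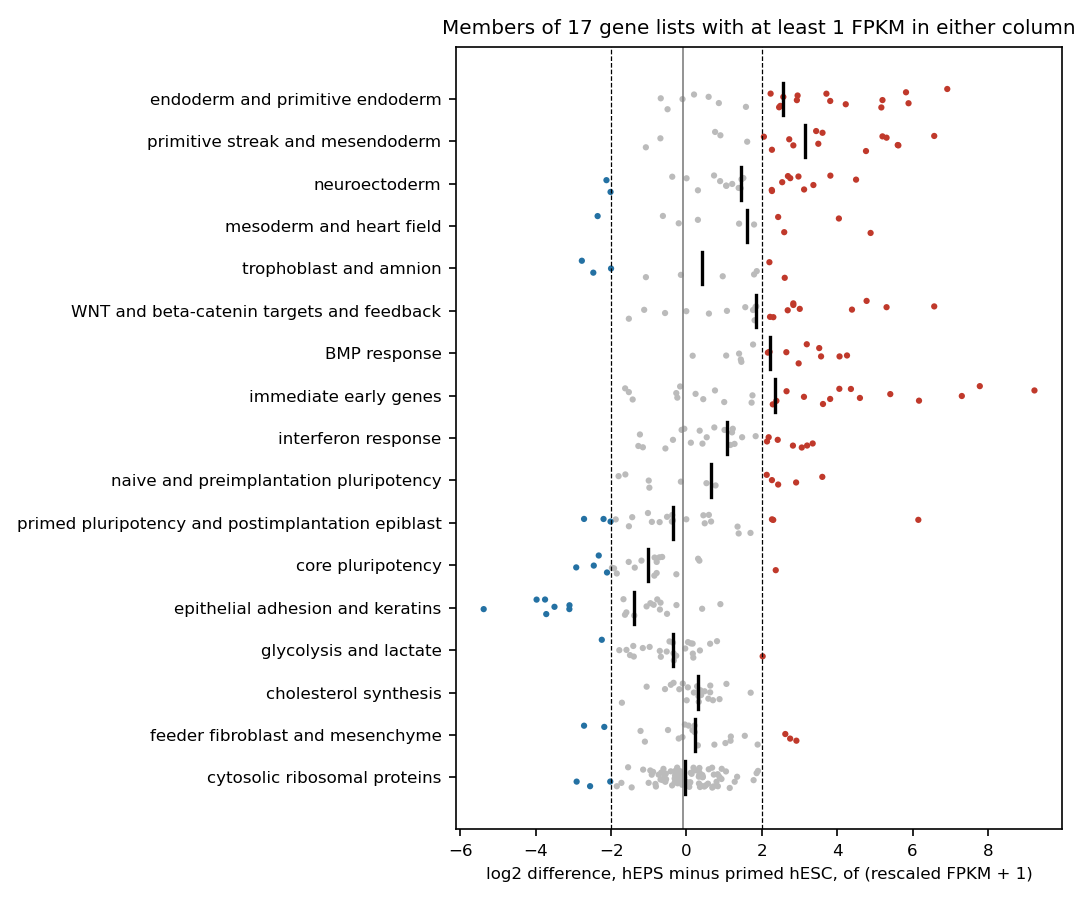
Log2 difference, hEPS minus primed hESC, of (rescaled FPKM + 1) for the measured members of 17 gene lists, 1 point per gene, with a black bar at the list's median, a grey line at the median of all measured genes (-0.09) and dashed lines at 4-fold. Endoderm (median 2.57), streak (3.14), immediate early (2.34), BMP (2.20) and WNT (1.85) members lie mostly to the right, core pluripotency (-1.02) and epithelial (-1.39) members mostly to the left. The medians of the primed, glycolysis and ribosomal protein lists turn positive on FPKM as deposited.

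Outside the lists, the largest difference on the lower side was that of MIF, a secreted cytokine, with 1.85 FPKM in hEPS cells and 615 in primed hESCs (-8.55). MIF was at 0.882 FPKM in crotonate-treated hEPS cells, 714 in crotonate-treated primed hESCs and 350 in endodermal cells, so it divided the columns by table. Its exons also overlap another gene on the same strand. Of the 15 largest differences on the lower side, 10 kept to their table and 10 overlapped a gene on the same strand, whereas on the higher side these numbers were 4 and 2 of 15. Both columns of the hEPS table were at least 4-fold beyond all 3 others for 14 of the 15 lowest and 11 of the 15 highest. CDH1, also among the 15, did not divide the columns this way, with 8.34 FPKM in crotonate-treated hEPS cells, 2.17 in crotonate-treated primed hESCs and 33.8 in endodermal cells. Among the 15 highest, HIST1H4C, a histone gene whose RNA mostly lacks a poly(A) tail, had 144 FPKM in hEPS cells and was listed at 0 in primed hESCs. The imprinted gene DLK1 had 54.2 FPKM in hEPS cells and 0.20 in primed hESCs (6.08), and OLIG3, a factor of dorsal neural progenitors, had 32.2 in hEPS cells and was listed at 0 in primed hESCs.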

How the data were processed

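RNA was oligo(dT)-enriched and sequenced as paired-end reads. The methods give RNeasy for the extraction and the labels TRIzol. According to the methods and the submitters' processing notes, TopHat (1.3.2) and Cufflinks (1.1.0) served for the alignment to hg38, HTSeq (0.6.0) and StringTie (1.3.0) for the counts, and edgeR for TMM normalization before conversion. The tables deposited by the authors hold these FPKM values, 1 column per group in 3 tables of the series. How 2 samples became 1 column, and the annotation behind each table, are not given in the sources used here. Depth is unknown, and 0 further columns of values per sample were present.

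Date-like symbols made by spreadsheet software were dropped (28 from the hEPS data, 27 from the primed data). Columns were rescaled to a sum of 1000000 over shared genes and compared on log2(value + 1), with a minimum of 1 FPKM in either column and a call at 4-fold. limma and exact tests need replicates and were not run. Alternatives were quantile normalization, FPKM as deposited, median-ratio scaling over genes of at least 10 FPKM, a pseudocount of 0.1, other minimums, 2-fold and 16-fold calls, and, chosen after seeing the data, removal of overlapping or table-bound genes and joining by RefSeq synonyms. The calling rule was tested on simulated data. Named were the study's markers, the 15 largest differences each way that quantile normalization kept, up to 5 called members per list, and the pluripotency lists, and genes outside this rule were chosen after their values were seen. The members and the 41 lists were chosen with earlier results of these data known, and the immediate early list was added later. Some list members are not reported here. Coordinates are from GENCODE 44 and promoters from RefSeq. Versions were pandas 2.3.3 and numpy 2.4.6 under Python 3.11.15, with matplotlib 3.10.9 for plots.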

Additional observations from a re-analysis of the deposited data

How the results depend on the processing

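Of the 407 genes called higher and 400 called lower in hEPS cells, 407 and 342 remained after quantile normalization. Comparing FPKM as deposited moved the median difference to 0.38, gave 493 higher and 134 lower, and raised the share of higher calls to 78.6%, against 50.4% after rescaling. Median-ratio scaling gave 440 higher and 370 lower. A pseudocount of 0.1 gave 578 higher and 645 lower, and a minimum of 5 FPKM gave 298 and 261 among 10011 genes. Calls at 2-fold numbered 1421 higher and 1869 lower, and at 16-fold 78 and 35. Without genes overlapping on the same strand there were 343 higher and 300 lower, after removal of table-bound genes 350 and 342, and with synonyms joined 409 and 403, all 3 chosen after seeing the data. Of 150 named genes that were called, 147 stayed past 4-fold after quantile normalization, 108 on FPKM as deposited and 146 with median-ratio scaling, and 0 changed sign. Medians of the 42 lists moved by less than 1 except with a pseudocount of 0.1 (endoderm 4.06, streak 4.95, HOX 5.94), without a filter (mesoderm 0.17, HOX 0.22, cancer-testis 0), at 5 FPKM (naive 2.52, trophoblast -2.0, HOX 4.13) and without overlapping genes (germline 1.95).

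No paired analysis was possible because each group has 1 column and the columns carry no replicate number, and no sample was left out for the same reason. With no replicate and no stated depth, differences under 4-fold between the columns were not called. Where their values or signs are given, they are descriptions only. Values near 0 carry an unknown counting error.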

Other observations

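Genes used by the dorsal neural tube, picked after their values were seen, were higher in hEPS cells, which their selection fixes. Beside WNT1, OLIG3 and RSPO3, FOXB1 had 29.4 FPKM in hEPS cells and 0.187 in primed hESCs, and WNT8B had 11.5 in hEPS cells and 0.365 in primed hESCs. LMX1A, a roof plate factor, had 4.62 FPKM in hEPS cells and was listed at 0 in primed hESCs. In crotonate-treated hEPS cells OLIG3 was at 0.532 FPKM, WNT1 at 2.16 and LMX1A at 0.672, all below the untreated hEPS column.

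Further epithelial genes were lower, also picked after their values were seen. ST14, a membrane protease, had 0.968 FPKM in hEPS cells and 18.1 in primed hESCs (-4.16), and OVOL2, a repressor that maintains epithelia, had 0.661 in hEPS cells and 5.59 in primed hESCs (-2.86). The polarity gene CRB3 had 3.56 FPKM in hEPS cells and 12.5 in primed hESCs (-2.19).

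Genes that GENCODE 44 places on both X and Y, in the pseudoautosomal regions, were counted after their values were seen. Of 11 measured, 7 were called higher and 0 lower in hEPS cells, with a median of 3.61, against 3.2% called higher over all genes, and 4 of the 7 kept to their table. SLC25A6 had 290.0 FPKM in hEPS cells and 11.9 in primed hESCs, and VAMP7 had 17.4 in hEPS cells and was listed at 0 in primed hESCs. In the other columns SLC25A6 was at 237 FPKM in crotonate-treated hEPS cells, 7.11 in crotonate-treated primed hESCs and 10.7 in endodermal cells. CD99, also called higher, did not divide the columns by table, with 109 FPKM in hEPS cells and 1.70 in primed hESCs (5.20), and 177 in crotonate-treated hEPS cells, 171 in crotonate-treated primed hESCs and 212 in endodermal cells. ASMTL, of the same regions, was not called, with 21.0 FPKM in hEPS cells and 25.2 in primed hESCs. How each table treated reads that map to both chromosomes was not tested.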
